A study of Homo sapiens with 8 samples.

Results

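RBM39 and the genes related to it through the U2AF homology motif were picked by symbol, and their RNA levels were followed in the Panc10.05 line, an established line of human pancreatic cancer cells. They were 9 of the 60675 genes listed: RBM39, RBM23, U2AF2, U2AF1, U2AF1L4, SF1, PUF60, RBM17 and UHMK1. All 9 were among the 16661 genes left by the filter on low counts. The 8 libraries made up 4 groups of 2. Parental untreated cells received no drug. Parental indisulam cells received 2 µM indisulam for 18 h. Resistant indisulam cells came from a population selected on increasing doses and were held on 2 µM without a break. Resistant untreated cells were of that same population after a week off the drug. The resistant line was a selected population for which no single clone was named, and all 4 groups shared the Panc10.05 background, with no engineered allele named. The treatment notes of the labels spoke of A549, a lung cancer line, but titles and cell line entries both gave Panc10.05, which was used here. The study describes the paired libraries as technical replicates, so the p-values measured the spread between these libraries.

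Indisulam is a sulfonamide that brings RBM39, a splicing factor, to a ubiquitin ligase with the receptor DCAF15, and RBM39 protein is then degraded. Its paralog RBM23 is also a target of this ligase and drug. The U2AF homology motif is an RNA recognition motif that binds short peptides built around a tryptophan in other splicing factors, such as SF1 and SF3B1. U2AF2 reads the polypyrimidine tract before the 3′ splice site, its small partner U2AF1 reads the AG at the intron end, and SF1 holds the branch point until the U2 small nuclear ribonucleoprotein replaces it. The libraries measured messenger RNA, and protein was not measured in them. Gene counts also joined every isoform: RBM39 had 47 annotated transcripts, of which 8 were protein coding, 16 were marked for nonsense-mediated decay and 16 were marked as retaining an intron.

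Reads in genes ranged from 65266253 to 108002436 per library. Levels are given as CPM, the reads of a gene per 1000000 reads in genes, with library totals scaled by the trimmed mean of M values (TMM). The paired libraries differed by more than sampling noise in every group (mean chi-square of 2.053 to 6.323 per gene). Of 9 epithelial and ductal markers, keratins 8, 18, 19 and 7, EPCAM and CDH1 were abundant, whereas MUC1 (3.95 to 19.2 CPM) and GATA6 (2.61 to 6.14 CPM) were low and PDX1 had 3 to 7 reads. Of 14 markers of other cells, PTPRC, CD3E, CPA1, INS, GCG, NKX2-1 and SFTPB were at 0 in every library, and the 14 together reached 1.566 to 4.376 CPM.

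For U2AF1, the counts could not be read as its level. The reference genome holds a second copy of the gene on chromosome 21, which GENCODE marks as an artefactual duplication. U2AF1 lies at chr21:43092956-43107570 on the minus strand of GRCh38, and the second copy lies at chr21:6484623-6499248. Over 14615 aligned bases the copies differed by 18 substitutions and 4 gaps of 11 bases in all, an identity of 99.877%. Only 3 of these substitutions fell in the 1862 exon bases of the protein-coding transcripts, and none of the differences fell in the 787 coding bases. A read from the coding part therefore fits both places equally well. To show this, 60 bases are printed from the longest coding block of 145 bases, 5′ to 3′ on the minus strand of GRCh38, without capitals because no base differed. They were read at chr21:43093190-43093249 and chr21:6484857-6484916.
U2AF1: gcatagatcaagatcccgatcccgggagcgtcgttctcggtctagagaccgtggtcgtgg
second copy: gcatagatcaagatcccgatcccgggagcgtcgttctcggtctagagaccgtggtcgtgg

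**Figure D1:**
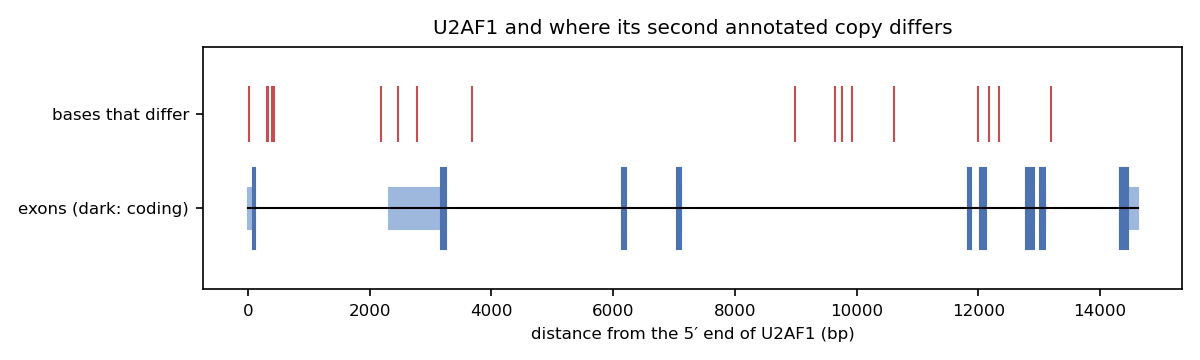
The horizontal axis gives the distance in bp from the 5′ end of U2AF1. Boxes are exons of protein-coding transcripts, dark where coding, and the 18 red ticks are the substitutions in the second copy, none of which falls in a coding box.

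U2AF1 had 205 to 414 reads per library and the second copy had 2 to 9. U2AF2, which pairs with U2AF1 in a heterodimer, had 24336 to 44919 reads. Per kb of merged exons, U2AF2 exceeded U2AF1 by 292.6 to 304.6 times in the parental untreated libraries, or by 163.0 to 169.7 times with the longest transcript as length. Reads of low mapping quality, which the counter set aside, were 7.554% to 8.245% of all reads listed per library. How many of them came from U2AF1 was not tested, so the U2AF1 values below describe only the reads that were placed.

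To place RBM39 among its relatives, levels were divided by the length of the merged exons. U2AF2 stood highest in parental untreated cells, at 101.9 ± 0.403 CPM per kb (SD, n = 2), followed by SF1 at 71.0 ± 0.331 and PUF60 at 42.6 ± 0.199. UHMK1 (28.9 ± 0.876 CPM per kb) and RBM39 (27.9 ± 0.272 CPM per kb) differed by little more than the SD of UHMK1, and their order turned with the longest transcript as length. The other neighbours in this order differed by more than their SDs. RBM17 followed at 11.9 ± 0.101 and RBM23 at 5.57 ± 0.0679 CPM per kb. U2AF1L4, a minor paralog of U2AF1, stood near the bottom at 0.457 ± 0.00319 CPM per kb. The placed reads of U2AF1 were below it at 0.341 ± 0.0111 CPM per kb. With the longest transcript as length, this order turned too (0.509 for U2AF1L4 and 0.807 for U2AF1).

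In parental indisulam cells, RBM39 reached 60.4 ± 0.897 CPM per kb and passed UHMK1 and PUF60. Its share of the summed level of the 9 genes, per kb, went from 9.6% ± 0.043 to 15.6% ± 0.217 in parental cells and from 9.14% ± 0.163 to 15.3% ± 0.514 in resistant cells (SD, n = 2). With the longest transcript as length, the shares were higher, 12.478% and 19.962% in parental cells and 11.78% and 19.37% in resistant cells. In both lines and with both lengths, the treated libraries held the larger share.

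**Figure D2:**
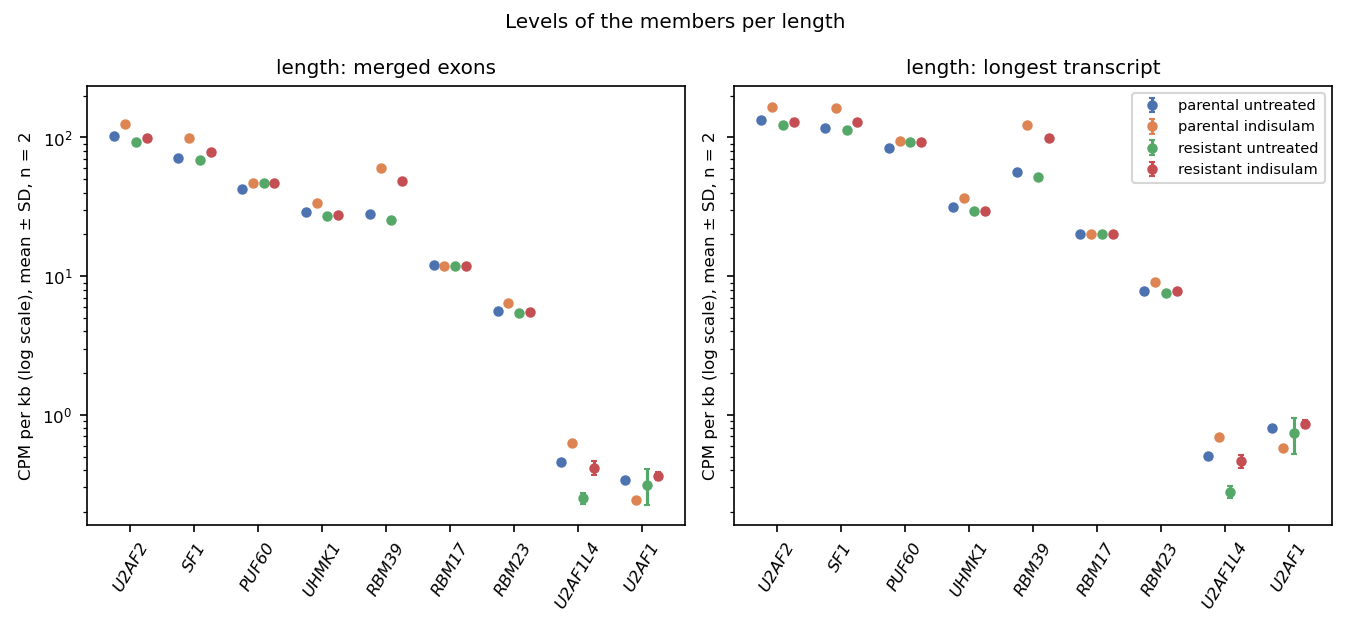
The vertical axis gives CPM per kb on a log scale for each gene, as mean ± SD of 2 libraries, with merged exons as length on the left and the longest transcript on the right. RBM39 moves up with indisulam in both lines, from 27.9 to 60.4 in parental cells on the left, whereas RBM17 stays close to 11.9.

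First, the drug target itself was followed. RBM39 (ENSG00000131051, chr20:35701347-35742312, minus strand) had 331.9 and 336.5 CPM in the parental untreated libraries. It had 716 and 731 CPM in the parental indisulam libraries. The resistant untreated libraries had 298.8 and 310.9 CPM, and the resistant indisulam libraries 577.4 and 591.0 CPM. Both treated libraries of a line lay above both untreated ones, and in each drug state the resistant libraries lay below the parental ones.

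RBM39 RNA rose in parental cells on indisulam by 1.11 log2 units (SE 0.0287, 2.17-fold, adjusted p = 4.88e-18, edgeR). It rose in resistant cells by 0.94 log2 units (SE 0.0289, 1.92-fold, adjusted p = 7.28e-18, edgeR). Among the 8811 genes with a mean of at least 10 CPM, RBM39 had the second largest rise in parental cells and ranked 15th in resistant cells. Only 3 of these 8811 genes rose by more than 1 log2 unit in parental cells, and the other two, RRAGB (1.29) and the unnamed gene ENSG00000285517 (1.02), were looked up after their values were seen. Among all 16661 genes tested, the rise of RBM39 had rank 156 in parental cells and rank 833 in resistant cells. Of these 16661 genes, 206 rose by more than 1 log2 unit in parental cells and 731 in resistant cells. By reads, RBM39 moved from rank 473 of 16661 genes in parental untreated cells to rank 174 in parental indisulam cells.

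**Figure D3:**
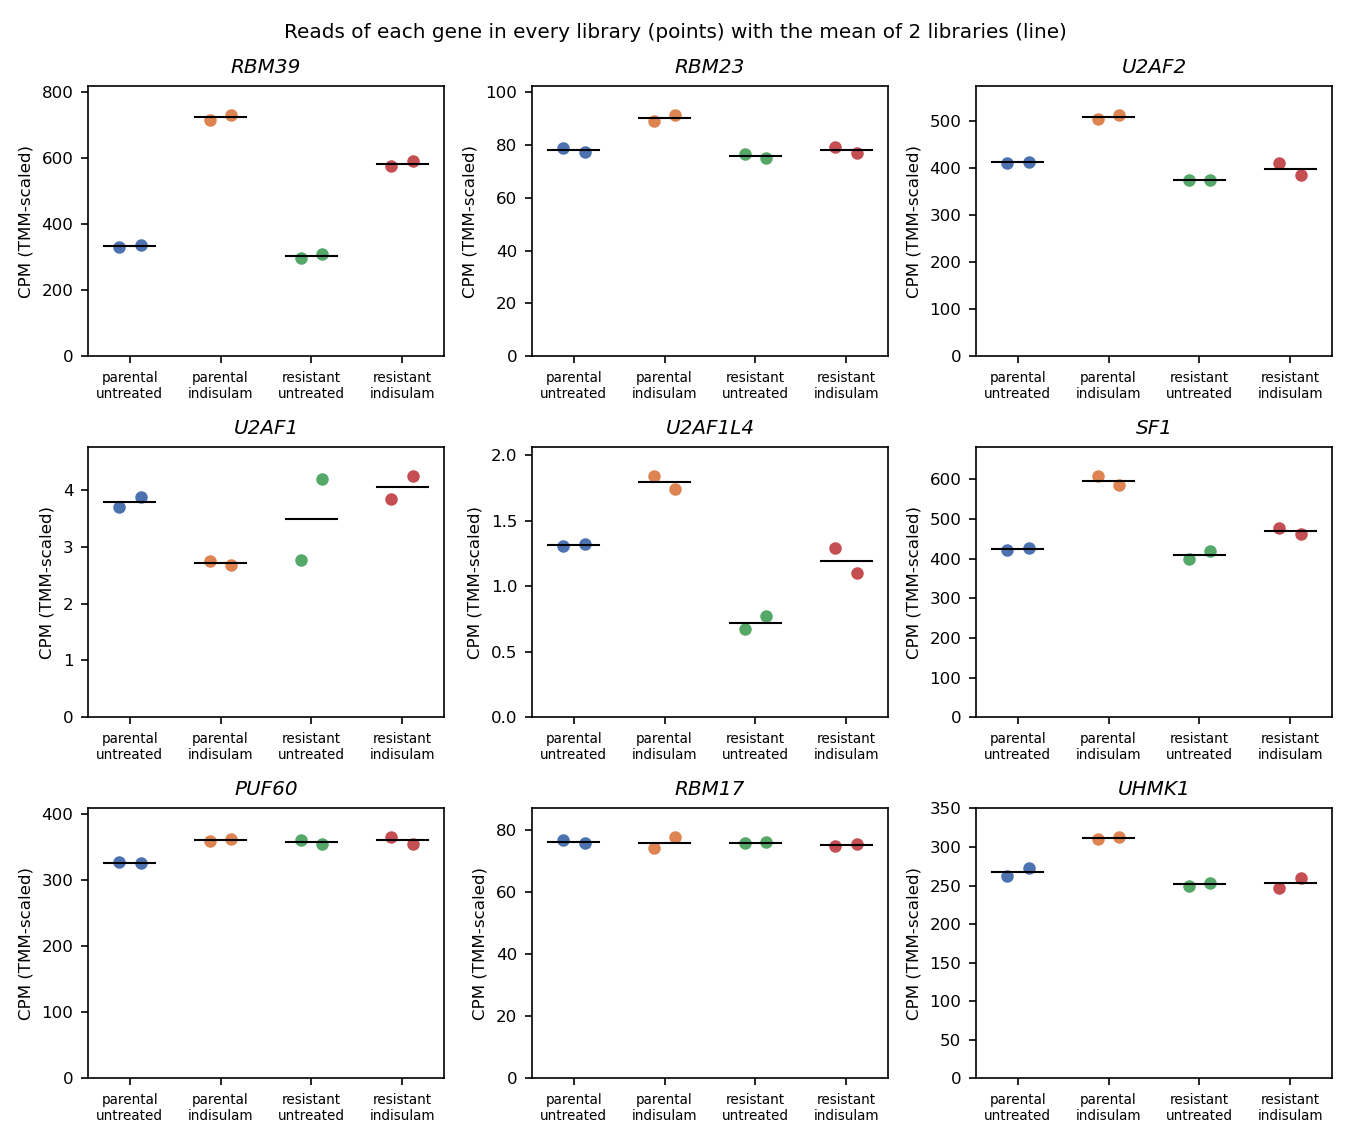
Each panel gives the CPM of a gene (vertical axis from 0) in the 8 libraries, with points for libraries and lines for the means of 2. RBM39 is higher in treated cells of both lines (723.8 and 584.2 CPM against 334.2 and 304.8), RBM17 stays between 74.1 and 77.7 CPM, and the resistant untreated libraries of U2AF1 stand apart from each other.

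Off the drug, RBM39 was lower in resistant than in parental cells by a small amount (log2 fold change -0.13, SE 0.0287, adjusted p = 0.000333, edgeR). On the drug the gap was wider (log2 fold change -0.31, SE 0.0283, adjusted p = 9.91e-10, edgeR). Resistant cells on the drug still held more RBM39 RNA than parental untreated cells (log2 fold change 0.81, SE 0.0286, adjusted p = 2.01e-17, edgeR). These comparisons share libraries with one another. The summed epithelial markers moved with the line, at 6332 to 6521 CPM in the parental libraries and 10820 to 12250 CPM in the resistant ones, and their part in the differences between the lines was not tested. The 14 markers of other cells summed to 4.295 to 4.376 CPM in the resistant indisulam libraries and 1.566 to 2.125 CPM in the other 6 libraries. Most of this sum was COL1A1, at 1.337 to 3.960 CPM, whereas COL1A2 reached at most 0.0416 CPM and PDGFRB 0.0593 CPM. The part of these markers in the comparisons of resistant indisulam cells was not tested. In bulk RNA, fewer cells of a type and less RNA per cell cannot be told apart.

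Whether RBM39 changed less in resistant cells was tested as the difference of the drug responses. The parental response was to 18 h of drug, whereas the resistant one set continuous exposure against a week off the drug, so the line and the length of exposure cannot be told apart in this difference for any gene. It was -0.18 log2 units (SE 0.0403, adjusted p = 0.000875, edgeR). This call was lost with library totals alone in place of TMM (-0.06, adjusted p = 0.2) and with genes filtered at a mean CPM of 1 (-0.09, adjusted p = 0.0589). With library totals alone, the median of all genes for this difference shifted from 0.01 to 0.13. Relative to the median of all genes, the RBM39 difference was -0.19 with TMM, -0.19 with library totals alone and -0.11 with the CPM filter. RBM39 was also set relative to RBM17 within each library, a ratio that no scaling touches and that was chosen after its values were seen. It went from between 2.11 and 2.15 to between 3.23 and 3.27 log2 units in parental cells. In resistant cells it went from between 1.98 and 2.03 to between 2.95 and 2.97. RBM17 was itself called at 0.11 for the difference with library totals alone, so the ratio cannot decide between the scalings.

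Next, RBM23 was considered, the closest paralog of RBM39 and a further substrate of the drug-bound ligase. RBM23 (ENSG00000100461, chr14:22893204-22919182, minus strand) had 78.8 and 77.4 CPM in parental untreated and 89.1 and 91.3 CPM in parental indisulam libraries. In the resistant line it had 76.6 and 74.9 CPM off and 79.2 and 76.9 CPM on the drug. The treated libraries lay above the untreated ones in both lines, by a narrow margin in the resistant line (76.9 against 76.6 CPM).

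RBM23 rose in parental cells by 0.21 log2 units (SE 0.0304, 1.15-fold, adjusted p = 3.38e-06, edgeR), and the resistant response of 0.04 (SE 0.0315) did not pass (adjusted p = 0.284, edgeR), though it was called at 0.09 with library totals alone. The difference of the responses was -0.17 (SE 0.0438, adjusted p = 0.00294, edgeR), but it did not pass with library totals alone (-0.05, adjusted p = 0.33) or with the CPM filter (-0.08, adjusted p = 0.112). Off the drug the resistant minus parental value was -0.04 log2 units (adjusted p = 0.232, edgeR), called at -0.07 with library totals alone. On the drug RBM23 was lower in resistant cells by 0.21 units (log2 fold change -0.21, adjusted p = 2.08e-06, edgeR). The ratio of RBM39 to RBM23 per kb thus went from between 4.93 and 5.09 to between 9.38 and 9.42 in parental cells, and from between 4.57 and 4.86 to between 8.542 and 9.001 in resistant cells.

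Then the U2 auxiliary factor subunits were followed. U2AF2 (ENSG00000063244, chr19:55654146-55674716, plus strand) had 410.4 and 412.7 CPM in parental untreated and 504.6 and 512.2 CPM in parental indisulam libraries. It had 374.8 CPM in both resistant untreated libraries and 411 and 385 CPM in the resistant indisulam ones. The treated libraries were higher in both lines, with the wider gap in parental cells.

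U2AF2 rose by 0.30 log2 units in parental cells (SE 0.0296, 1.24-fold, adjusted p = 8.02e-09, edgeR) and by 0.09 in resistant cells (SE 0.0299, adjusted p = 0.0188, edgeR). The resistant call was lost without resistant untreated replicate 2 (0.08) and without resistant indisulam replicate 1 (0.04, against 0.13 without replicate 2), and also in a fit of the resistant groups alone (0.08). The difference of the responses was -0.22 (SE 0.0420, adjusted p = 0.000145, edgeR). U2AF2 was lower in resistant cells both off (-0.14, adjusted p = 0.000401) and on the drug (-0.35, adjusted p = 2.11e-10, edgeR). In resistant cells on the drug against parental untreated cells the change of -0.05 did not pass (adjusted p = 0.155), but it was called at -0.11 without resistant indisulam replicate 1.

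The placed reads of U2AF1 (ENSG00000160201) had 3.70 and 3.87 CPM in parental untreated and 2.75 and 2.67 CPM in parental indisulam libraries. The resistant untreated libraries had 2.77 and 4.19 CPM, farther apart than any other pair, and the resistant indisulam libraries had 3.84 and 4.24 CPM. The parental change was -0.48 log2 units (SE 0.145, adjusted p = 0.012, edgeR), a call that was lost without parental untreated replicate 2 (-0.45, adjusted p = 0.071). The resistant change of 0.24 did not pass (adjusted p = 0.197), and it rested on which resistant untreated library was used, at 0.55 (called) without replicate 2 and -0.04 (not called) without replicate 1. The value between the lines off the drug, -0.14, likewise became -0.44 (called) without resistant untreated replicate 2 and 0.15 (not called) without replicate 1. The lines on the drug differed by 0.58 (adjusted p = 0.00343, edgeR) and the responses by 0.72 (SE 0.205, adjusted p = 0.0107, edgeR), or by 0.46 without resistant untreated replicate 1 and 1.05 without replicate 2.

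U2AF1L4 (ENSG00000161265, chr19:35742464-35745445, minus strand) was the rarest member by reads, with 50 to 143 per library. It had 1.31 and 1.32 CPM in parental untreated, 1.84 and 1.74 CPM in parental indisulam, 0.68 and 0.77 CPM in resistant untreated and 1.29 and 1.10 CPM in resistant indisulam libraries. The resistant untreated libraries were the lowest. The gene overlaps ENSG00000267120 on the same strand, which was listed at 0 reads. Reads fitting both genes may have been set aside as ambiguous (2.558% to 2.84% of all reads listed).

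U2AF1L4 rose by 0.45 log2 units in parental cells (SE 0.132, adjusted p = 0.00573, edgeR; 0.0723 with DESeq2) and by 0.72 in resistant cells (SE 0.172, adjusted p = 0.00123, edgeR). It was lower in resistant cells off the drug (-0.87, SE 0.162, adjusted p = 6.5e-05) and on it (-0.60, SE 0.141, adjusted p = 0.000667, edgeR). The responses differed by 0.27 with an SE of 0.218, which did not pass (adjusted p = 0.321, edgeR).

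SF1, the branch point binding protein that docks onto U2AF2, had the second largest parental rise of the 9 genes by point estimate. SF1 (ENSG00000168066, chr11:64764606-64778786, minus strand) had 422.7 and 425.5 CPM in parental untreated and 608.0 and 584.6 CPM in parental indisulam libraries. It had 399.2 and 418.8 CPM in resistant untreated and 476.8 and 462.4 CPM in resistant indisulam libraries. Treated and untreated libraries were separate in each line.

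SF1 rose by 0.49 log2 units in parental cells (SE 0.0300, 1.41-fold, adjusted p = 4.28e-12, edgeR) and by 0.20 in resistant cells (SE 0.0302, 1.15-fold, adjusted p = 6.85e-06, edgeR). The difference of -0.29 (SE 0.0425, adjusted p = 5.16e-06, edgeR) was called under every scaling tried, which were TMM, DESeq2 size factors and library totals. Between the lines SF1 showed -0.05 off the drug (adjusted p = 0.139), called at -0.08 with library totals alone. With the drug it was lower in resistant cells (log2 fold change -0.34, adjusted p = 4.05e-10, edgeR). Per kb, U2AF2 stood at 1.43 times SF1 in both parental untreated libraries and at 1.23 to 1.29 times in the parental indisulam ones.

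**Figure D4:**
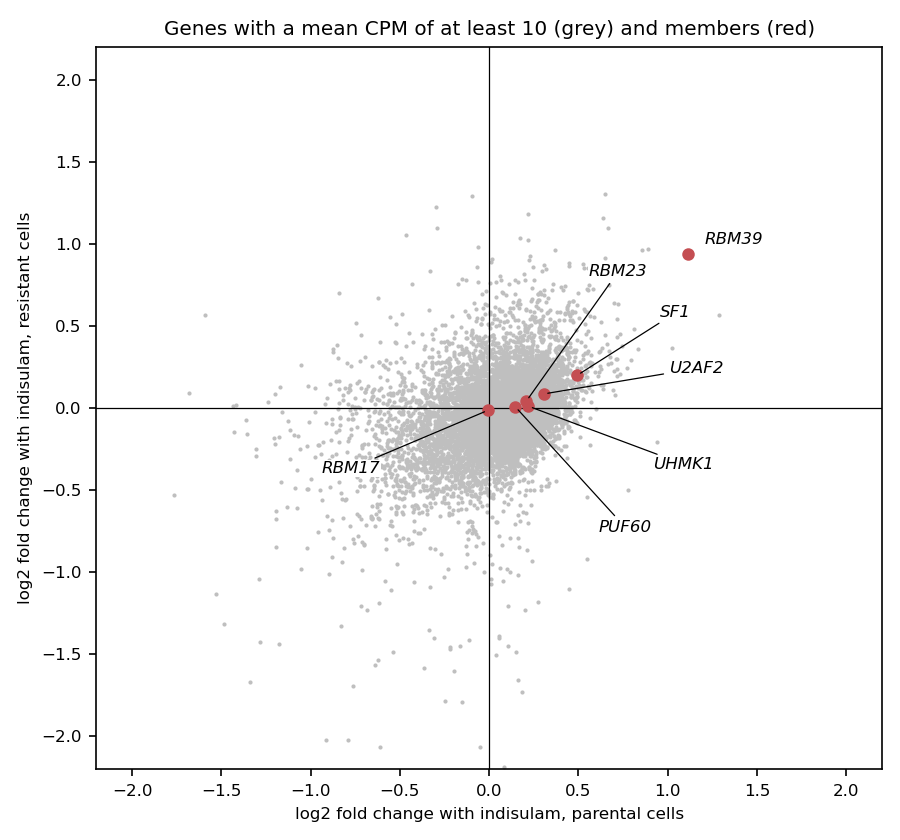
Each grey point is one of 8811 genes with a mean of at least 10 CPM, with the log2 fold change on indisulam in parental cells on the horizontal and in resistant cells on the vertical axis, and 7 genes lie beyond the axes. RBM39 stands in the upper right at 1.11 and 0.94, SF1 at 0.49 and 0.20, and RBM17 at the origin, and U2AF1 and U2AF1L4 are too low to be plotted.

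PUF60 and RBM17 carry the motif at their end and act beside U2AF at the 3′ splice site. PUF60 (ENSG00000179950) had 327.1 and 324.9 CPM in parental untreated, 359.5 and 362.1 CPM in parental indisulam, 360.7 and 354.6 CPM in resistant untreated and 364.9 and 354.6 CPM in resistant indisulam libraries. The parental untreated libraries were the low ones. PUF60 rose by 0.15 log2 units in parental cells (SE 0.0271, adjusted p = 6.8e-05, edgeR) and showed 0.01 in resistant cells (SE 0.0272, adjusted p = 0.825, edgeR). It was the one member called higher in resistant cells off the drug (0.13, SE 0.0272, adjusted p = 0.00017, edgeR). On the drug the lines differed by -0.00 (adjusted p = 0.896), which was called at 0.08 with library totals alone and at 0.07 with the CPM filter. The difference of the responses, -0.14 (adjusted p = 0.00455, edgeR), was lost with library totals alone (-0.02), with the CPM filter (-0.05), without resistant untreated replicate 1 (-0.10) and without resistant indisulam replicate 2 (-0.10). An antisense lncRNA, ENSG00000287222, overlaps the gene and held 1.958% of the reads of the pair.

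RBM17 (ENSG00000134453, chr10:6089034-6117457, plus strand), also called SPF45, was the flattest of the 9. It had 76.6 and 75.7 CPM in parental untreated, 74.1 and 77.7 CPM in parental indisulam, 75.6 and 76.1 CPM in resistant untreated and 74.9 and 75.5 CPM in resistant indisulam libraries. No group stood apart from the others. Its log2 fold changes lay between -0.02 and -0.00 over the 6 comparisons, with SEs of 0.0309 to 0.0444, and none passed with TMM. With library totals alone it was called at -0.07 in parental cells, at 0.07 between the lines on the drug and at 0.11 for the difference of the responses.

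UHMK1, a kinase that carries the motif and phosphorylates SF1, had 261.9 and 273.3 CPM in parental untreated and 310.2 and 313.0 CPM in parental indisulam libraries. It had 249.5 and 253.6 CPM in resistant untreated and 247.2 and 259.6 CPM in resistant indisulam libraries, so the resistant groups overlapped. UHMK1 (ENSG00000152332, chr1:162497251-162529631, plus strand) rose by 0.22 log2 units in parental cells (SE 0.0298, 1.16-fold, adjusted p = 1.16e-06, edgeR) and showed 0.01 in resistant cells (SE 0.0302, adjusted p = 0.782, edgeR). The responses differed by -0.21 (SE 0.0424, adjusted p = 0.000265, edgeR), or by -0.09 with library totals alone, which did not pass (adjusted p = 0.069). On the drug it was lower in resistant cells by 0.30 units (log2 fold change -0.30, adjusted p = 4.95e-09, edgeR). Off the drug the call (-0.09, adjusted p = 0.0129) was lost without parental untreated replicate 2 (-0.06) or resistant untreated replicate 1 (-0.08). Against parental untreated cells, resistant cells on the drug were lower by 0.08 units (log2 fold change -0.08, adjusted p = 0.0255), and this was lost without parental untreated replicate 2 (-0.05) or resistant indisulam replicate 1 (-0.06, against -0.13 without replicate 2), with DESeq2 size factors, with library totals alone and with the CPM filter.

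Then the 9 genes were counted against all 16661 genes tested. In parental cells on indisulam, 8 of 9 were called, 7 higher and 1 lower, where 58.2% of all genes were called, 31.6% higher and 26.6% lower. Their median log2 fold change was 0.22, against 0.01 over all genes. In resistant cells, 4 of 9 were called, all higher (RBM39, U2AF2, U2AF1L4 and SF1), where 50.7% of all genes were called, 24.9% higher and 25.8% lower. Their median was 0.09, against 0.01. The share called in resistant cells was thus near that of all genes. The 4 calls all had the same direction, but that of U2AF2 was lost in some of the alternatives.

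Off the drug, 5 of 9 were called between the lines, of which PUF60 was higher in resistant cells and 4 were lower, beside 60.1% of all genes, 30.3% higher and 29.9% lower. On the drug, 7 of 9 were called, U2AF1 higher and 6 lower, beside 69.5% of all genes, 34.6% higher and 34.9% lower. Library totals alone gave 3 higher and 6 lower members here, beside 68.7% of all genes called. Over all genes, the called genes that were higher then went from 49.8% to 59.7%. For resistant cells on the drug against parental untreated cells, 4 of 9 were called, 3 higher and 1 lower, beside 64.8% of all genes, 32.2% higher and 32.6% lower. The difference of the drug responses was called for 7 of 9, 1 higher and 6 lower, beside 50.1% of all genes, 22.7% higher and 27.5% lower. With library totals alone, that difference was called for 2 members higher and 2 lower, while the share of called genes that were higher went from 45.2% to 65.8% over all genes.

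**Figure D5:**
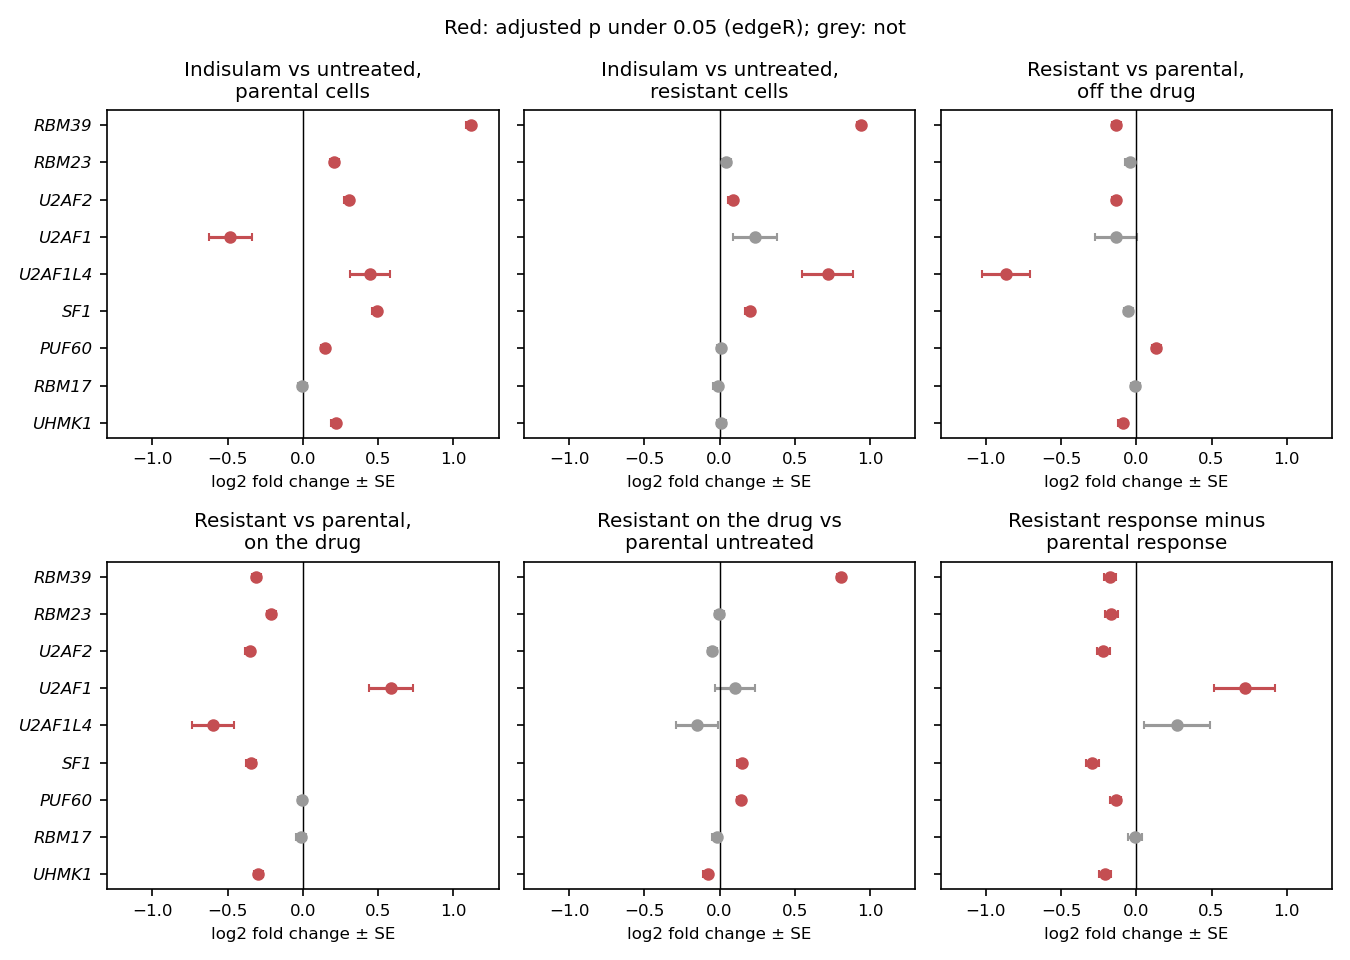
Each panel gives the log2 fold change ± SE of the 9 genes for one comparison, red where the adjusted p was under 0.05 and grey otherwise. RBM39 stands farthest to the right in both drug responses (1.11 and 0.94), and 6 members stand left of 0 in red in the difference of the responses.

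To see the wider pathway, 25 other genes of branch point and 3′ splice site recognition were counted, and all 25 were tested. In parental cells on indisulam, 18 rose and 4 fell, with a median of 0.15 log2 units. In resistant cells, 4 rose and 11 fell, with a median of -0.08. The difference of the responses was called for 18, 2 higher and 16 lower, with a median of -0.21. These counts stand beside the shares of all genes given for the same comparisons. With library totals alone, 15 rose and 5 fell in parental cells, and 5 rose and 9 fell in resistant cells. The difference was then higher for 3 and lower for 12. Over all genes, the called genes that were higher went from 54.3% with TMM to 42.0% with library totals in parental cells. They went from 49.1% to 59.7% in resistant cells and from 45.2% to 65.8% for the difference.

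SF3B1, a U2 snRNP subunit at the branch point and a partner of the U2AF homology motif, went from 354.3 ± 0.985 to 477.3 ± 11.4 CPM in parental cells and from 357.5 ± 3.44 to 420.3 ± 0.156 CPM in resistant cells (SD, n = 2). It rose by 0.43 log2 units in parental cells and by 0.23 in resistant cells (adjusted p = 7.76e-12 and 1.69e-07, edgeR). DHX15, a helicase that takes spliceosomes apart, rose by 0.42 in parental cells and by 0.09 in resistant cells (adjusted p = 6.19e-12 and 0.00543, edgeR). SNRPB2, the U2B″ protein of the U2 snRNP, rose by 0.37 in parental cells (adjusted p = 1.75e-09), whereas resistant cells showed a fall (log2 change -0.19, adjusted p = 2.98e-05, edgeR). SF3B4 rose by 0.07 in resistant cells (adjusted p = 0.0444, edgeR), and this call was lost in 5 of the 8 fits that left out a library. The SF3B4 call was also lost with DESeq2 size factors, the DESeq2 Wald test, no filter on low counts and the resistant groups alone.

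Among the genes that fell, DDX39B, a helicase that helps U2 snRNP join the branch point, went from 150.7 ± 4.86 to 74.3 ± 2.05 CPM in parental cells, a log2 change of -1.02 (SE 0.129, adjusted p = 0.00264, edgeR). In resistant cells it went from 127.9 ± 21.6 to 108.7 ± 5.31 CPM (log2 change -0.23, adjusted p = 0.209, edgeR). This change was -0.40 without resistant untreated replicate 1, and the fits that left out a library ranged from -0.40 to -0.06. SUGP1, which binds SF3B1, fell by 0.22 in parental cells (adjusted p = 2.93e-05, edgeR). SF3A2 changed by -0.11 in parental cells (adjusted p = 0.0298, edgeR), a call lost without parental untreated replicate 1 (-0.10), parental untreated replicate 2 (-0.12) or parental indisulam replicate 2 (-0.08), and at -0.19 without parental indisulam replicate 1. Resistant cells showed falls of SF3B3 (log2 change -0.29, adjusted p = 5.03e-09), SF3A3 (-0.22, adjusted p = 1.33e-06) and PHF5A (-0.22, adjusted p = 1.19e-05, edgeR), all subunits of the U2 snRNP. In parental cells SF3B3 and SF3A3 were called at 0.11 each and PHF5A at 0.26. The parental calls of SF3B3 and SF3A3 were lost with library totals alone (0.04 and 0.05), with the CPM filter (0.05 and 0.06) and without parental indisulam replicate 2 (0.07 each). Because the strand setting of the counting was not given in the sources used here, counts of genes that overlap others are uncertain. SF3A2 overlaps PLEKHJ1, an opposite-strand gene with 41.12% of the reads of that pair.

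Finally, genes whose pattern over the 8 libraries was nearest to that of RBM39 were listed by the root mean square difference of centred log2 CPM, among 9084 genes whose mean log2 CPM was 3 or more. The nearest was SAT1, which acetylates spermidine and spermine, at 0.11 log2 units. SAT1 had 17.3 and 32.0 CPM in parental untreated and treated cells and 15.9 and 31.1 CPM in resistant ones. HMOX1 (heme oxygenase, 0.22), CAT (catalase, 0.22) and WASHC2C (a subunit of the endosomal WASH complex, 0.23) were also among the 5 nearest. HMOX1 changed by 0.65 and 1.303 log2 units in parental and resistant cells, CAT by 0.72 and 0.54, and SAT1 by 0.89 and 0.97. For RBM23, the nearest were ZNF207 (0.0145), DHX16 (0.0147) and SLC25A44 (0.0163), each with a parental change of 0.20 to 0.22. These distances describe 8 libraries that share their scaling, and likeness by this measure was not tested.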

How the data were processed

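Total RNA of 8 Panc10.05 libraries was sequenced after stranded polyA selection. The authors trimmed reads with SeqPurge, aligned them with HISAT2 2.2.1 to GRCh38 and deposited raw counts per gene. Per the labels, HTSeq and Picard were also used; the strand setting and annotation release of the counting were not given in the sources used here, so reads of overlapping or duplicated genes may have been dropped or shared. The 9 lines that name no gene held 37.878% to 44.937% of the reads listed and were left out. GENCODE 44 matched 60419 of 60675 genes.

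The main test was edgeR 4.0.16 under R 4.3.3 (filterByExpr, TMM, a robust quasi-likelihood fit of the 4 groups over 8 libraries, 4 residual degrees of freedom). Benjamini-Hochberg adjustment ran over 16661 genes, and an adjusted p under 0.05 was called. SEs were computed as the absolute log2 value over the square root of F. The smallest two-sided exact permutation p of 2 against 2 is 0.333, and no single value was tested like that. The code was tested on simulated counts. Alternatives were DESeq2 1.42.0 (size factors and Wald test), library totals alone, no filter, a mean CPM of 1, the compared groups alone, a replicate block, a minimum effect of 0.5 log2 units, each library left out, and the longest transcript as length; those for the 25 listed genes were chosen after seeing the data. Same-numbered libraries did not deviate together (correlations of -0.058 to 0.027). All members were named. Of the list of 25, the 3 largest rises and 3 largest falls among called genes in each drug response were named, with the 5 genes nearest RBM39, of which 1 is not reported here, and the 3 nearest RBM23. The members and lists were chosen with earlier results of these data known.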

Additional observations from a re-analysis of the deposited data

Results flagged for a closer look

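The change on indisulam differed for 7 members and 8 of the named splicing genes, by the edgeR test of the difference itself (resistant minus parental, log2 units). Line and length of exposure cannot be told apart in it. Over all genes tested, 50.1% were called for this difference. The named splicing genes had been chosen by the size of their drug responses in these same data. Among the members the difference was -0.1759 for RBM39, -0.1663 for RBM23, -0.2187 for U2AF2, -0.2923 for SF1, -0.138 for PUF60, -0.2084 for UHMK1 and 0.7196 for the placed reads of U2AF1. Those of RBM39, RBM23 and PUF60 did not pass with library totals alone or with genes filtered at a mean CPM of 1, and that of UHMK1 did not pass with library totals alone. Among the splicing genes it was -0.1968 for SF3B1, -0.3305 for DHX15, -0.4797 for PHF5A, -0.3371 for SF3A3, -0.3947 for SF3B3, -0.5613 for SNRPB2, 0.1902 for SF3A2 and 0.7859 for DDX39B. The SF3B1 difference did not pass with library totals alone (-0.0817, adjusted p = 0.0625). The DDX39B difference (adjusted p = 0.0243) did not pass in 6 of the 8 fits that left out a library.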

How the results depend on the processing

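The rise of RBM39 on indisulam was called in both lines under every alternative run. Leaving out each library gave 1.08 to 1.13 in parental cells, 0.91 to 0.96 in resistant cells, -0.15 to -0.10 between the lines off the drug, -0.32 to -0.27 on it, 0.77 to 0.81 for resistant cells on the drug against parental untreated cells and -0.19 to -0.13 for the difference of the responses. These fits left a group without a replicate, so counts of called members and listed genes are not given for them. Of 432 member values with a library left out, 420 kept their side of the threshold, 9 were no longer called and 3 became called. Direction was compared only where a fit called the value, so uncalled values among those kept could change sign. U2AF1 in resistant cells did so without resistant untreated replicate 1 (-0.04 against 0.24). Of 369 under the other alternatives apart from the minimum effect, 348 kept their side of the threshold. Of the rest, 13 were no longer called, 4 became called and 4 reversed.

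Against a minimum effect of 0.5 log2 units, the members called were 1, 1, 1, 0, 1 and 0 in the same order, and the listed genes called were 0 in both responses and in the difference (edgeR called 7 and 18 for the difference without this minimum). Of all genes, 6.25%, 5.28%, 15.5%, 21.1%, 17.9% and 5.45% were called with this minimum. RBM39 was then not called off the drug (-0.1329), on the drug (-0.3089) or for the difference (-0.1759). With library totals alone, 4 members were called for the difference, beside 48.6% of all genes. RBM39 was then at -0.0608, and PUF60 on the drug (0.0831), RBM17 on the drug (0.0737) and RBM17 for the difference (0.1069) reversed. With a mean CPM of at least 1, 4 members were called for the difference, beside 58.5% of the genes left by that filter. RBM39 was then at -0.0911, and PUF60 on the drug reversed (0.0745). The cause was not tested. All other counts of members under these alternatives stayed within 1.5 times.

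The replicate numbers did not pair the libraries. With the replicate block, RBM39 was at 1.11 and 0.94 in the drug responses. The members called there were 8 and 4, beside 57.2% and 49.9% of all genes. Of the members and named genes only SF3A2 lost a call with this block (-0.1105, adjusted p = 0.0524, edgeR, parental cells). U2AF1 and U2AF1L4 rested on at most 414 and 143 reads per library, and each group held 2 libraries.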
